A study of Homo sapiens with 12 samples.

Results

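The long arm of chromosome 9 (9q) held 2565 of the 79473 KDM2B peaks called in 7 human leukaemia cell lines. Peaks were taken as members where their midpoint lay above 49 Mb on chromosome 9 in build hg19, the position where the centromeric band of the long arm begins. KDM2B binding was mapped by chromatin immunoprecipitation and sequencing (ChIP-seq) with an antibody against KDM2B in cells grown in IMDM with 10% FBS. There was 1 KDM2B library with its peak list per line and none was replicated, so a property of a line cannot be told apart from a property of its library. The line K562 was derived from chronic myeloid leukaemia at blast crisis. Acute lymphoblastic leukaemia of B-cell precursors (B-ALL) gave the lines REH and SUP-B15, and that of T cells (T-ALL) gave JURKAT, DND41, SIL-ALL and HPB-ALL. Diagnoses are background knowledge of the lines, not labels of the samples. The arm was selected on a measured value, its share of each peak list. That share was lower in every T-ALL line than in every other line, so the difference between these sides is described below and was not tested.

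KDM2B is a histone demethylase with a CXXC zinc finger that binds unmethylated CpG-rich DNA. It brings a variant Polycomb repressive complex, PRC1.1, to CpG islands, which lie mostly at gene starts. The distal end of 9q is rich in genes and CpG islands. It holds ABL1, the tyrosine kinase gene that is joined to BCR on chromosome 22 in chronic myeloid leukaemia and in some B-ALL, among them K562 and SUP-B15, and K562 is known to carry extra copies of the fusion. It also holds NUP214, a nucleoporin gene that is fused to ABL1 in some T-ALL, and NOTCH1, a receptor gene often mutated in T-ALL. In RefSeq order (GRCh38.p14, which is not the peaks' build and served for gene order only) ABL1 is followed towards the telomere by QRFP, FIBCD1, LAMC3, AIF1L, NUP214, FAM78A, PLPP7, PRRC2B and POMT1, with 1 further coding locus that has only a provisional name directly after ABL1. Of the 778 protein-coding genes of chromosome 9 listed there, 145 (18.6%) lie beyond ABL1. No gene annotation of build hg19 was used here, so peaks were not assigned to genes, and genes named below are background on a band or on the order of genes.

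The 9q members numbered 279 in K562, 326 in REH, 297 in SUP-B15, 489 in JURKAT, 444 in HPB-ALL, 400 in SIL-ALL and 330 in DND41. As a share of the list they were 4.70% in K562 (Wilson 95% interval 4.19 to 5.26%), 3.94% in SUP-B15 (3.53 to 4.41%) and 4.002% in REH (3.60 to 4.45%). In the T-ALL lines the shares were 3.48% in HPB-ALL (3.17 to 3.81%), 3.30% in JURKAT (3.02 to 3.59%), 2.61% in SIL-ALL (2.37 to 2.88%) and 2.21% in DND41 (1.98 to 2.46%). DND41 and SIL-ALL were thus the lowest lines, and the interval of HPB-ALL overlapped those of REH and SUP-B15. The mean share was 4.21 ± 0.419% (SD, n = 3) for K562 with the B-ALL lines, and 2.90 ± 0.592% (SD, n = 4) for T-ALL. The arm makes up 2.98% of the hg19 sequence. That includes 16.9 Mb of centromeric and variable bands in which no list had a peak, so it is not an expected share. The share was lower in every T-ALL line on 4.55% of the arms (2 of 44, 9q and 21q) and higher in every T-ALL line on 9.09% (4 of 44, namely 2q, 3q, 4q and 18q). Since the arm was selected for this contrast, nothing is read from that count. These intervals cover counting error only, and the number of reads behind the lists is unknown. They also treat each peak as independent. Many members lay within 500 bp of another peak of the list, so the intervals may be too narrow. Every T-ALL list was also longer than every other list, with 12765 to 15304 peaks against 5942 to 8146, so the kind of leukaemia and the length of the list cannot be told apart.

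**Figure D1:**
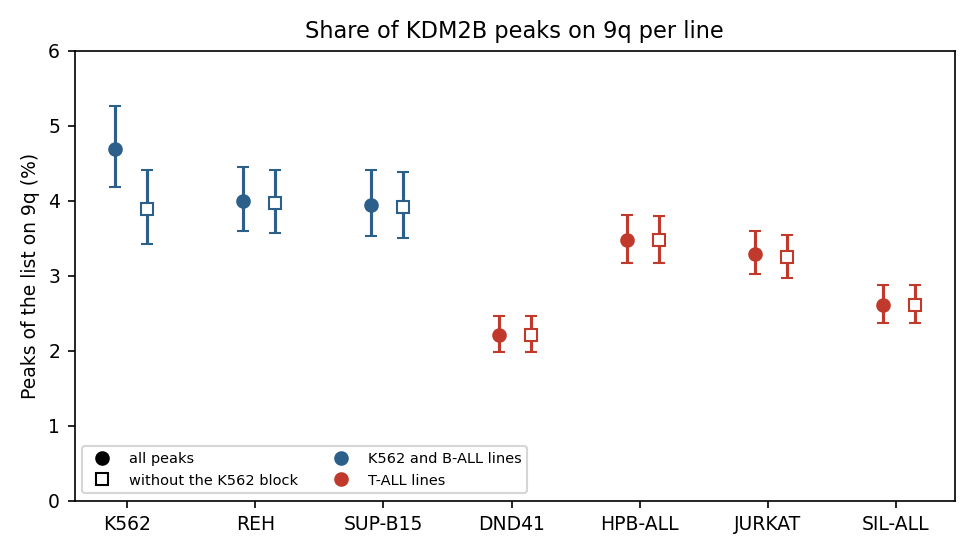
Share of each list on 9q in percent (points, Wilson 95% intervals as bars) for the 7 lines, with all peaks (filled circles) and without the peaks of the K562 block on 9q34.12 described in the text (open squares). The K562 point moves from 4.70% to 3.89%, and all T-ALL lines stay at or below 3.48%.

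The most prominent feature of the arm was a dense block of wide peaks in K562 just beyond ABL1, in bands 9q34.12 and 9q34.13. When K562 peaks no more than 30 kb apart were chained, 50 peaks joined into 1 run at chr9:133769440-134001969, 233 kb long, of which the peaks covered 56.4%. The block held 17.9% of the K562 members. Its peaks had a median width of 2004 bp and reached 11104 bp, and 42 of the 50 were wider than 1000 bp, against 33 of the 229 other K562 members. The next longest K562 runs held 24 peaks in 22q11.21 (10.3% covered) and 21 peaks in 1p36.33 (15.5% covered). Runs of 20 or more peaks were found in every list, from 1 in HPB-ALL to 15 in SIL-ALL. Apart from this block, the most densely covered of these runs were at 16.7% in SIL-ALL and at 8.81 to 15.5% in the other lists.

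The other lines had few peaks in the same interval. JURKAT had 8 peaks there (0.846% of the bases), REH 3 (0.239%), SUP-B15 2 (0.213%) and HPB-ALL 1 (0.0847%), and DND41 and SIL-ALL had none. SUP-B15, which also carries BCR-ABL1, thus showed no such block. Only 4 of the 50 K562 peaks overlapped a peak of another line, compared with 149 of the 229 other K562 members. In the 250 kb before the block K562 had 5 peaks that covered 1.35% of the bases, and in the 250 kb after it 2 peaks that covered 2.37%. The chaining itself leaves more than 30 kb without a K562 peak on either side.

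**Figure D2:**
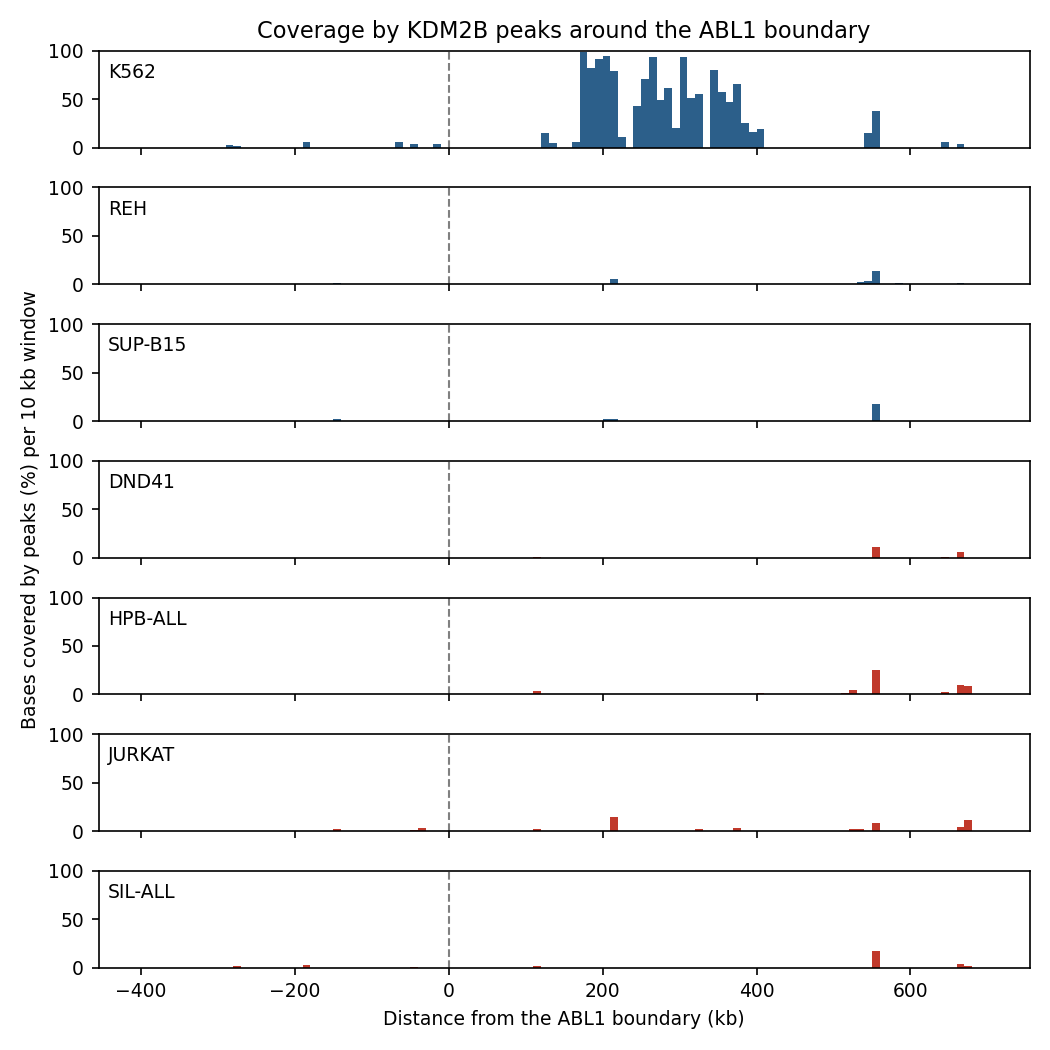
Percentage of bases covered by KDM2B peaks in 10 kb windows, by distance in kb from the ABL1 boundary, 7.61 Mb from the chromosome end (dashed line, positive towards the telomere), 1 row per line (blue, K562 and B-ALL lines; red, T-ALL lines). K562 exceeds 20% in 20 of the 110 windows and reaches 98.8%, while HPB-ALL does so in 1 window and the other lines in none.

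Within the block, the highest K562 score belonged to a peak of 4176 bp at chr9:133970969-133975144 (score 1277, percentile 99.8 of the K562 list). Scores are those the authors' files give for each peak, and percentiles rank them within a list. That peak overlapped 1 peak of another line, in JURKAT, with a score of 140. The widest peak, of 11104 bp at chr9:133806805-133817908 (score 942), overlapped 11 narrow peaks of 3 other lines, REH, SUP-B15 and JURKAT, whose best scores were 79.9, 64.5 and 138. This was the site in the block that most lines held. The next 2 by score, of 10618 bp (score 669) and 9511 bp (score 522), overlapped none. Copy number was not measured and the input libraries were not used here, and their part in the block was not tested.

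Without the block, the 9q share of K562 was 3.89% (3.42 to 4.41%), next to 3.97% in REH and 3.92% in SUP-B15. The 3 lines then differed by less than their counting intervals. The mean over these lines was 3.92 ± 0.0404% (SD, n = 3), against 2.88 ± 0.578% (SD, n = 4) for T-ALL. Each T-ALL line remained below each of the others. The share of covered bases on 9q was 6.76% in K562, with 3.96% in REH, 3.63% in SUP-B15 and 1.62 to 3.37% in the T-ALL lines.

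Along the arm, the lower share of the T-ALL lines lay in the distal 5 Mb bins. In each of the 5 bins from 120 Mb to the end of the chromosome, every T-ALL line was below every other line. In the first of them, from 120 Mb, K562 (8 peaks, 1.35 per 1000 peaks of the list) and HPB-ALL (17 peaks, 1.33 per 1000) were nearly equal. Over the genome such bins made up 4.62% (27 of the 584 bins with a peak), and 7.27% of the 275 bins at least as rich in peaks as the poorest of these 5. These shares are given as background only, since the arm was selected for this contrast. The only other 9q bin of this kind, at 65 to 70 Mb, held 0 or 1 peak per line. In the richest bin, which starts at 130 Mb, the number per 1000 peaks of the list was 19.2 in K562, 8.23 in SUP-B15 and 8.22 in REH, and 7.88 in JURKAT, 6.42 in HPB-ALL, 5.62 in SIL-ALL and 4.88 in DND41. K562 stood far above the rest in it, and JURKAT came close to the B-ALL lines. Without the block K562 was at 10.9 per 1000. In the next bin, which ends at 140 Mb, the values were 8.08 in K562, 9.96 in SUP-B15 and 10.3 in REH, and 6.11 in HPB-ALL, 5.68 in SIL-ALL, 5.26 in JURKAT and 3.95 in DND41. Here the B-ALL lines were highest.

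**Figure D3:**
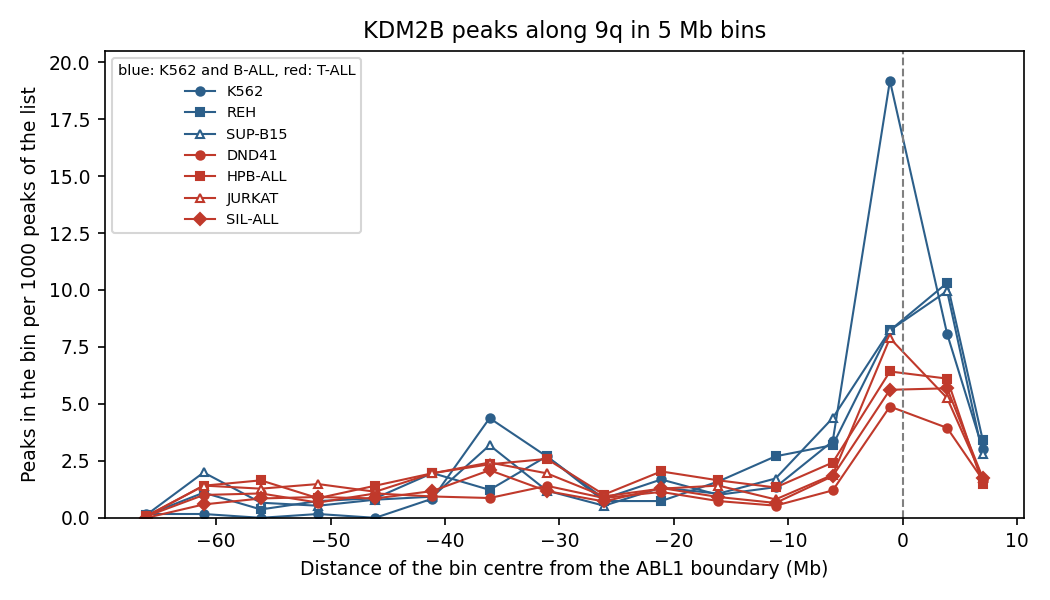
Number of peaks in each 5 Mb bin of 9q per 1000 peaks of the list, by distance in Mb of the bin centre from the ABL1 boundary (dashed line), for the 7 lines (blue, K562 and B-ALL; red, T-ALL). From 120 Mb on, in the last 5 bins, all red lines run below all blue ones, and the other bins overlap except at 65 Mb (red below) and 75 Mb (red above).

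In absolute number, the distal members overlapped between the sides. Above 120 Mb there were 208 members in K562 (158 without the block), 227 in REH and 204 in SUP-B15, and 261 in JURKAT, 238 in SIL-ALL, 227 in HPB-ALL and 183 in DND41. Below 95 Mb the T-ALL lines had 72 (DND41), 94 (HPB-ALL), 109 (JURKAT) and 67 (SIL-ALL) members, and the others had 8 (K562), 42 (REH) and 38 (SUP-B15). As a share of the list the sides overlapped there, from 0.438 to 0.736% in T-ALL lines and from 0.135 to 0.516% in the others. Between 95 and 120 Mb they overlapped too, with 0.502 to 0.964% in T-ALL lines and 0.700 to 1.06% in the others. The limits of 95 and 120 Mb were set after the bins had been seen.

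K562 was nearly empty in the part of the arm below 95 Mb. Its 8 members there were 2.87% of its 9q members, against 12.8% and 12.9% in the B-ALL lines and 16.8 to 22.3% in the T-ALL lines. From 75 to 80 Mb it had no peak, and REH had 3, SUP-B15 5, SIL-ALL 13, DND41 16, JURKAT 19 and HPB-ALL 21. That bin alone among those of 9q was higher in every T-ALL line as a share of the list, a pattern seen in 12.3% of the 584 bins. In the bin from 95 to 100 Mb, K562 was the highest line per 1000 peaks of the list (4.38, from 26 peaks), followed by SUP-B15 (3.19, from 24), and DND41 the lowest (0.870, from 13). By number of peaks JURKAT was highest there with 36 and REH lowest with 10. Band 9q22.32 in that bin holds PTCH1, the receptor of Hedgehog ligands, and FANCC, a gene of the Fanconi DNA repair pathway.

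The segment distal to ABL1 was taken as the last 7.61 Mb of the chromosome, or 8.26% of the arm. Its boundary was a fixed position, and where that lies relative to the ends of ABL1 was not checked. The segment may therefore include part of the gene. The segment held 122 of the members in K562 (43.7%, Wilson interval 38.0 to 49.6%), 123 in REH (37.7%, 32.6 to 43.1%) and 100 in SUP-B15 (33.7%, 28.5 to 39.2%). In the T-ALL lines it held 130 in JURKAT (26.6%, 22.9 to 30.7%), 128 in SIL-ALL (32.0%, 27.6 to 36.7%), 118 in HPB-ALL (26.6%, 22.7 to 30.9%) and 92 in DND41 (27.9%, 23.3 to 33.0%). The T-ALL values were all below the others, but SIL-ALL lay close to SUP-B15 and the intervals of the sides overlapped. Without the block K562 dropped to 31.4% (25.8 to 37.7%), below SIL-ALL, so the sides then overlapped. As a share of the whole list the segment held 1.22% in K562 without the block, 1.47% in REH and 1.30% in SUP-B15, and 0.616 to 0.917% in the T-ALL lines. On that scale the sides remained apart. The last peak before the boundary was a K562 peak at chr9:133588617-133589039 (score 60.2), and the first beyond it a SIL-ALL peak at chr9:133710256-133710487 (score 173). At the arm start no peak of any list lay between chr9:44875263-44875382 on the short arm (JURKAT) and chr9:66457021-66457179 on the long arm (HPB-ALL).

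A pair of Giemsa-light bands carried the most members. Band 9q34.11 held 52 to 81 peaks per line and 9q34.3, the band of NOTCH1 and of the histone methyltransferase gene EHMT1, 52 to 75. Band 9q34.12 held 54 in K562 and 1 to 11 in the other lines. In 9q34.2, the band of the retinoid receptor gene RXRA, K562 had 12 peaks and DND41 14, JURKAT 16, SUP-B15 22, HPB-ALL 25, SIL-ALL 30 and REH 35. In 9q34.13 K562 had 7, SUP-B15 9, DND41 15, REH 16, SIL-ALL 22, HPB-ALL 30 and JURKAT 35. The order of the lines thus changed from band to band.

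The rank of the members' scores was not used in the selection, and it was compared within each list with that of all other peaks. The median percentile on 9q was 53.6 in K562, 52.2 in REH, 49.6 in SUP-B15, 51.7 in HPB-ALL and 49.7 in JURKAT, all near the 50th. It was 36.1 in DND41 and 35.5 in SIL-ALL, where the rest of the list was at 50.3 and 50.4. Over the 7 lines the mean difference was -3.17 ± 7.94 points (SD, n = 7; higher in 3 lines and lower in 4) and did not pass the two-sided exact sign-flip permutation test (p = 0.453, Benjamini-Hochberg adjusted over 3 tests 0.969). The smallest p that 7 lines allow is 0.0156. In DND41 only Xp (27.1) and Xq (31.5) had a lower median percentile than 9q among the 41 arms with 20 or more peaks. In SIL-ALL only Xq (23.8), Xp (25.4) and 9p (33.1) were lower. In these lists 9q was therefore among the arms of lowest rank, and they were also the lists with the lowest 9q shares. With lists of equal length, made of the 5942 top-scored peaks, the share was 1.55% in DND41 and 1.78% in SIL-ALL, compared with 3.20% in JURKAT and 3.58% in HPB-ALL.

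**Figure D4:**
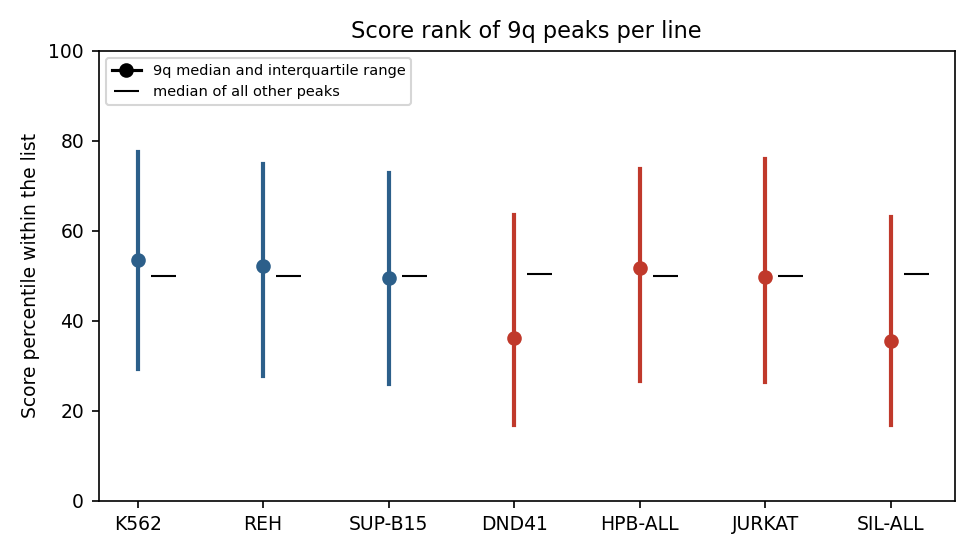
Percentile of the authors' peak score within each list for 9q peaks (point, median; bar, interquartile range) and the median of all other peaks of the list (black dash). DND41 and SIL-ALL have 9q medians of 36.1 and 35.5, while the other 5 lines lie between 49.6 and 53.6.

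Width followed the same lines. The median width of the members was 155 bp in DND41, where the rest of the list was at 215 bp, and 170 bp in SIL-ALL, where it was at 224 bp. It was 638 bp in K562, 90 bp above the rest, but 555 bp and 7 bp above without the block. In REH it was 210 bp, in SUP-B15 324 bp, in HPB-ALL 254 bp and in JURKAT 240 bp, beside 213, 351, 252 and 240 bp in the rest of those lists. The mean difference over the lines was -7.43 ± 49.95 bp (SD, n = 7; exact sign-flip permutation p = 0.813, adjusted 0.969). The share of members with another peak of the list within 500 bp, which counts sites reported as several peaks as well as close sites, was 46.3 to 53.5% in K562, REH and SUP-B15 and 55.8 to 63.0% in the T-ALL lines. In the rest of the lists it was 41.7 to 48.8% and 60.8 to 69.99%, so the lists differed in this outside 9q too. The share on 9q differed from the rest of the list by -0.109 ± 5.11 percentage points (SD, n = 7; exact sign-flip permutation p = 0.969, adjusted 0.969). None of these 3 comparisons of 9q with the rest passed the threshold of 0.05.

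Merging peaks of any list that shared at least 1 bp gave 1025 regions on 9q. Of these, 635 (62.0%) held a peak of 1 line alone and 390 (38.0%) of 2 or more, and over the genome 41.8% were shared. K562 alone accounted for 126 of the regions (12.3%, and 5.21% over the genome), DND41 for 55 (5.37%, and 9.40%) and SIL-ALL for 78 (7.61%, and 12.1%). REH (9.46%, and 8.18%), SUP-B15 (6.63%, and 5.23%), HPB-ALL (9.27%, and 7.99%) and JURKAT (11.3%, and 10.1%) were above their genome values. These values are tied to the share of each list on 9q, which was used to select the arm, and are description only. In K562, 51.0% of the 9q regions were shared with another line and 71.8% of its regions elsewhere. Without the block, 80 of 975 regions on 9q (8.21%) were of K562 alone, and 61.4% of the 207 K562 regions were shared. In the other lines the 9q value was 61.8 to 76.0% and the value elsewhere 63.2 to 75.8%.

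**Figure D5:**
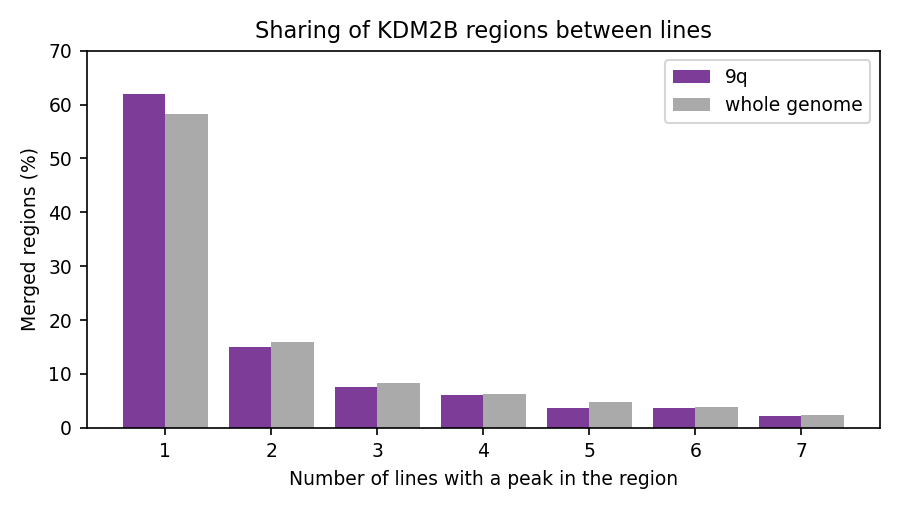
Percentage of merged KDM2B regions by the number of lines that had a peak in them, on 9q (purple, 1025 regions) and over the whole genome (grey). On 9q 62.0% of the regions belonged to 1 line and 2.15% to all 7, and over the genome 58.2% and 2.44%.

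A peak of every line was found in 22 regions, 2.15% of the 9q regions beside 2.44% over the genome. Of these, 21 lay above 95 Mb and 15 above 120 Mb, with 7 in 9q34.3 and 4 in 9q34.11. The highest mean percentile, 98.4, belonged to chr9:102581664-102587265 in 9q22.33, with scores of 1096 in K562, 375 in REH, 419 in SUP-B15, 2085 in JURKAT, 1751 in HPB-ALL, 1697 in DND41 and 596 in SIL-ALL. Its percentile was at least 92.7 in every list. The second lay at chr9:134148518-134153817 in 9q34.13, 147 kb beyond the K562 block (mean percentile 96.7). Its scores were 1240 in K562, 577 in REH, 282 in SUP-B15, 625 in SIL-ALL, 578 in DND41, 573 in HPB-ALL and 428 in JURKAT. K562 covered it with 1 peak of 5300 bp, and the other lines with 1 to 5 peaks of 867 to 2525 bp in all. The third was chr9:139438833-139441642 in 9q34.3 (mean percentile 94.0), with the highest score in SIL-ALL (1000) and the lowest in REH (167). The next 2 were chr9:115512423-115514256 in 9q32 (92.8), highest in HPB-ALL with a score of 1226, and chr9:123475756-123477673 in 9q33.2 (86.7), highest in HPB-ALL with 959.

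In a window of 1.5 Mb around the ABL1 boundary a further region was held by 6 lines, chr9:134269275-134270933 in 9q34.13, in which SUP-B15 had no peak. Its best scores were 818 in HPB-ALL, 448 in DND41, 318 in SIL-ALL, 84.2 in JURKAT, 59.8 in REH and 58.7 in K562. The single region between the boundary and the block that more than 1 line held, chr9:133710256-133710630, belonged to the T-ALL lines DND41 (score 63.3), HPB-ALL (177) and SIL-ALL (173). JURKAT peaks covered 1.82% of the same 10 kb window but did not overlap this region.

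All 4 T-ALL lines and none of the others had a peak in 13 regions (1.27%), beside 2.25% over the genome. Since the arm was selected for a lower share in T-ALL lines, nothing is read from that difference. Of the 13, 2 lay beyond the ABL1 boundary. The mean percentile of the 13 had a median of 53.9, and that of the all-line regions 75.5. The strongest was chr9:88355855-88356905 in 9q21.33 (86.2), with scores of 422 in SIL-ALL, 328 in HPB-ALL, 211 in DND41 and 182 in JURKAT. The next 3 were all in 9q31.1: chr9:108167617-108168399 (82.5), chr9:107889831-107890659 (75.8) and chr9:107753258-107754190 (63.5). They spanned 415 kb together. The fifth was chr9:130150653-130151258 in 9q33.3 (59.4).

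K562, REH and SUP-B15 and no T-ALL line had a peak in 4 regions, 0.390% beside 0.193% over the genome. This is again the contrast the arm was selected for, so the genome share is background only. Of these, 3 lay within 20 kb of each other in 9q33.3, the band of LHX2, a LIM homeodomain transcription factor gene. They were chr9:126761490-126763106, chr9:126779034-126780181 and chr9:126780396-126781461, and the first had scores of 226 in REH, 129 in K562 and 101 in SUP-B15. The other was chr9:140189505-140190868 in 9q34.3, with scores of 170, 108 and 112. REH and SUP-B15 alone shared 13 regions (1.27%, beside 1.07%). The strongest of them, chr9:137287968-137289301 in 9q34.2, had a mean percentile of 95.1 and scores of 227 in SUP-B15 and 246 in REH. The BCR-ABL1 lines K562 and SUP-B15 alone shared 4 regions (0.390%, beside 0.275%), of which the strongest was chr9:139559192-139559966 in 9q34.3 with scores of 87.0 and 75.3.

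Among regions of 1 line, the 2 strongest of K562 were peaks of the block, at percentiles 98.6 and 97.4. In the other lines the first was chr9:136423375-136423776 in REH (9q34.2, score 168), chr9:139483047-139483622 in SUP-B15 (9q34.3, score 162), chr9:140513910-140514136 in DND41 (9q34.3, score 135.2), chr9:136399582-136400228 in HPB-ALL (9q34.2, score 545), chr9:135362592-135363270 in JURKAT (9q34.13, score 295) and chr9:85538473-85538980 in SIL-ALL (9q21.32, score 369). DND41 had the weakest of these within its own list, at percentile 68.6, and the other 5 stood at 85.6 to 94.8.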

How the data were processed

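The 7 deposited KDM2B peak lists were used, and the 5 input libraries were not. The sample labels give an input for K562, REH, SUP-B15, HPB-ALL and SIL-ALL, and none for DND41 or JURKAT, both T-ALL lines. FastQC 0.10.1 and Bowtie 1.1.1 were used, with hg19 as the build, per the submitters' processing notes. Peak names point to MACS, per the files, with version, control and threshold not given in the sources used here. The score of each peak is the authors' deposited value with no unit stated, and its lowest value was 50 to 80 depending on the list, so it was used as a rank within a list. An alternative with a common floor assumes 1 scale. The depth of the libraries is unknown, and longer lists may reflect deeper or better enriched libraries.

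Positions count from 1, and bands are hg19 bands from circlize 0.4.16. Shares carry Wilson 95% intervals, which treat each peak as independent and may be too narrow where peaks cluster. Within-line differences between 9q and the rest were tested by two-sided exact sign-flip permutation over the 7 lines. The members and lists were chosen with earlier results of these data known. Regions named were, among 9q regions ranked by mean percentile of the best peak, the first 5 held by every line, by T-ALL lines alone and by the other 3 alone, 3 of each pair, 2 of each single line, and those of 2 or more lines in a 1.5 Mb window around ABL1, of which the text gives a part. The K562 block was defined after the data were seen. Alternatives were equal lists, scores at or above the list median, a common floor, merging within 500 bp, other denominators, bin sizes and overlaps, and each line left out. Counting was checked on simulated lists, where 400 of 400 planted regions were recovered. The planted peaks lay far apart, always overlapped between lines and had no other peaks on their chromosome. This checks the code only and does not bear on the split or wide peaks of the real lists. hg19 sequence was not used here, so no peak sequence is shown. Python 3.11.15, numpy 2.4.6, pandas 2.3.3, scipy 1.17.1 and matplotlib 3.10.9 were used.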

Additional observations from a re-analysis of the deposited data

Results flagged for a closer look

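Over 28 measures, all 7 lines, and the T-ALL lines by themselves, were searched for a line far from the rest of its group. Of the 56 groups examined 5 had one, and chance gives about 2.8. K562 stood apart from the other lines in the 5 Mb bin from 130 Mb, with 19.2 peaks per 1000 of its list (next 8.23, lowest 4.88), and in the covered share of the block, 56.4% (next 0.846%, lowest 0%). The block was delimited from the K562 peaks themselves, so that second value was bound to be high. K562 also stood apart in the width of 9q peaks over the rest of the list, at 90 bp (next 2 bp, lowest -60 bp), which was 7 bp without the block. Among the T-ALL lines, JURKAT stood apart in the block with 0.846% of bases covered (next 0.0847%). SIL-ALL was the only T-ALL line at 0 peaks per 1000 from 65 to 70 Mb, where the others had 1 peak each.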

How the results depend on the processing

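Of 101 alternative values, 76 were labelled as the same, 18 as moved and 7 as reversed. For the comparisons of 9q with the rest, that first label meant an unchanged sign and side of the threshold, whatever the size. Counts under it could also shift, as from 6 bins to 4 with equal lists. The T-ALL lines had the lower 9q share under every alternative run. The arm was selected for this contrast, so that is no independent check of it. Leaving a line out cannot undo a full separation of the sides. The difference, T-ALL minus other, was -1.31 percentage points, -2.23 as a share of covered bases, and -1.51 to -1.07 with each line left out. The difference in the segment distal to ABL1, as a share of the 9q peaks, was -10.1 percentage points, -15.0 with scores at or above the list median, -16.1 with a common score floor, -6.02 without the K562 block, where the sides overlapped, and -12.5 to -7.44 with each line left out. The 6 bins in which every T-ALL line was below the others became 3 with a common floor, and 6 or 7 with each line left out. Leaving a line out can only keep or raise that count, so it does not show stability. Of the 5 distal bins, 4 were left with equal lists and with scores at or above the median, and 3 with a common floor. Over the genome such bins made up 4.62% as deposited and 3.68% with equal lists. They made up 4.05% with scores at or above the median and 3.83% with a common floor.

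Regions of all lines numbered 22, and 9 with equal lists, 12 with scores at or above the median, 10 with a common floor, 0 with 50% reciprocal overlap and 21 to 35 with each line left out (35 without K562). Regions of the T-ALL lines alone numbered 13, and 3, 8 and 17 under the first 3 of these settings, 2 with 50% reciprocal overlap and 13 to 28 with each line left out (28 without DND41, 25 without SIL-ALL, 21 without REH, 20 without SUP-B15). For all lines, the reciprocal setting asked each line for a single peak matching a K562 peak in extent. K562 members were wider (median 638 bp, against 155 to 324 bp in the other lines), so this count could hardly be high. With a line left out, fewer lines had to hold or lack a peak, so those counts are not like for like. All these counts are for 9q alone, with no genome share beside them.

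No comparison of 9q with the rest of the list passed the threshold under any alternative. The width difference was -7.43 bp as reported and -54.8 bp with peaks within 500 bp counted as 1. It was 1.33 bp without DND41 and 0.333 bp without SIL-ALL, and -23.7 bp without K562. The score percentile difference was -4.33 to -1.21 with each line left out. The difference in close neighbours was 0.489 percentage points with a common floor, 0.445 with neighbours within 1000 bp, and -0.950 to 1.03 with each line left out. The causes were not tested. Depth, which limits how many weak peaks a list holds, is unknown. No paired analysis was possible because there is 1 list per line and no number shared between lines.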
